A study of Mus musculus with 46 samples.

Results

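The colonic electrolyte transport genes are a set of 10 genes whose products move sodium and chloride across the epithelium of the large bowel, or supply the bicarbonate and protons exchanged for them. They were described here in the cecum of mice on 4 diets. Each gene was found by matching the transcript accession of the array probes to mouse gene symbols, and was represented by its probe with the highest mean signal in cecum. All 10 genes had a probe, out of 20887 genes with a probe and 55681 probes in all. The set held 6 genes of absorption (Slc26a3, Slc9a2, Slc9a3, Scnn1a, Scnn1b and Scnn1g), 2 of secretion (Cftr and Slc12a2) and 2 carbonic anhydrases (Car1 and Car4).

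Male C57Bl/6 mice were 12 weeks old at the start and 20 weeks old at the end of 8 weeks on diet. Fat gave 45% of the energy of HFD, the high fat control diet, and 10% of that of LFD, the low fat diet. On HFD + inulin and HFD + inul PB, 10% of the diet by weight, made up of 5% corn starch and 5% cellulose, gave way to inulin or to the propionate and butyrate esters of inulin, 5% of each, so that the fiber diets also held less cellulose than HFD. RNA of whole cecum was measured on 22 one-colour Agilent arrays, namely HFD (n = 6), LFD (n = 5), HFD + inulin (n = 6) and HFD + inul PB (n = 5). The labels do not say in words that each array is a separate mouse, while the study describes its arrays as of mice with n = 6. The P values weigh each difference against the spread between these samples, and the number of arrays limits the precision.

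In the large bowel, surface colonocytes take up sodium chloride through paired exchangers. A sodium/proton exchanger brings in sodium and gives out a proton, while the chloride/bicarbonate exchanger SLC26A3 brings in chloride and gives out bicarbonate. Carbonic anhydrases supply both the proton and the bicarbonate from carbon dioxide and water. In the distal bowel the epithelial sodium channel ENaC adds a second, aldosterone-controlled path for sodium. Crypt cells secrete chloride instead. The basolateral cotransporter NKCC1 loads the cell and the apical channel CFTR lets chloride out, with water following.

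Values are log2 signals after normalisation between arrays, and differences between diets are differences of these log2 levels, so that 1 stands for a factor of 2. A gene was called higher or lower at an adjusted P under 0.05 (limma, Benjamini-Hochberg over all 55681 probes). A signal depends on the probe as well as on the RNA, so levels of different genes were not compared, and the brightest probe of a marker list (by mean log2 signal over the 22 arrays) is named as a description only. On each array between 47.09% and 54.41% of probes were well above background by the test of the scanner software, and 7 of the 10 genes were so on all 22 arrays. Scnn1b was well above background on 20 of 22 arrays, Slc9a3 on 2 of 22 and Scnn1g on 0 of 22. No spot other than control spots, which were not counted, was saturated.

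HFD replicate 5 stood apart from the other HFD arrays in its ileal genes. Fabp6, the ileal bile acid binding protein, read 18.77 on it and 9.70 to 11.04 on the other HFD arrays. Sis, the brush border sucrase-isomaltase of the small intestine, read 14.81 on it. Sis was also over 9 on HFD + inul PB replicate 5 (11.14), LFD replicate 2 (11.00), HFD + inulin replicate 1 (9.41) and LFD replicate 3 (9.07), and at most 6.47 on the remaining arrays. Ileal genes were thus measured on arrays of all 4 diets, most strongly on 1 control array. HFD replicate 5 was also the lowest HFD array for 7 of the 10 genes (Slc26a3, Slc9a2, Slc9a3, Scnn1a, Scnn1b, Car1 and Car4) and the highest for Cftr and Slc12a2. The differences it moved most are given with and without it.

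On the fiber diets 3 of the 10 genes rose and none fell past the threshold. Slc26a3 and Car4 rose on HFD + inulin, by 2.06-fold and 1.77-fold. Slc26a3, Slc9a2 and Car4 rose on HFD + inul PB, by 2.32-fold, 1.48-fold and 2.30-fold. The other 7 did not pass on either fiber diet in this fit. Under some other settings Slc12a2, Scnn1a and the near-background Slc9a3 were called lower, with the values given for each gene. Slc26a3, Car4 and Slc9a3 are among the genes that the study itself picked from these samples, so their direction here is not independent evidence.

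These counts were read against the share of all probes called. On HFD + inulin 2 of 10 genes were called higher, where 0.842% of all probes were higher, and 0 of 10 lower, where 0.735% were lower. On HFD + inul PB 3 of 10 were higher and 0 of 10 lower, where 3.51% of all probes were higher and 3.51% lower. At an unadjusted P under 0.05, 2 genes (Slc9a3 and Slc12a2) were lower on each fiber diet by limma. By the criteria of the study's methods (fold over 1.5 and unadjusted P under 0.01) 3 of 10 passed on HFD + inulin (Slc26a3 and Car4 higher, and the near-background Slc9a3 lower) against 2.47% of all probes. By those criteria 2 of 10 passed on HFD + inul PB (Slc26a3 and Car4) against 4.69%. The median difference over the 10 genes was 0.31 with inulin and -0.02 with the esters, beside 0.01 and 0.00 over all probes.

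**Figure D1:**
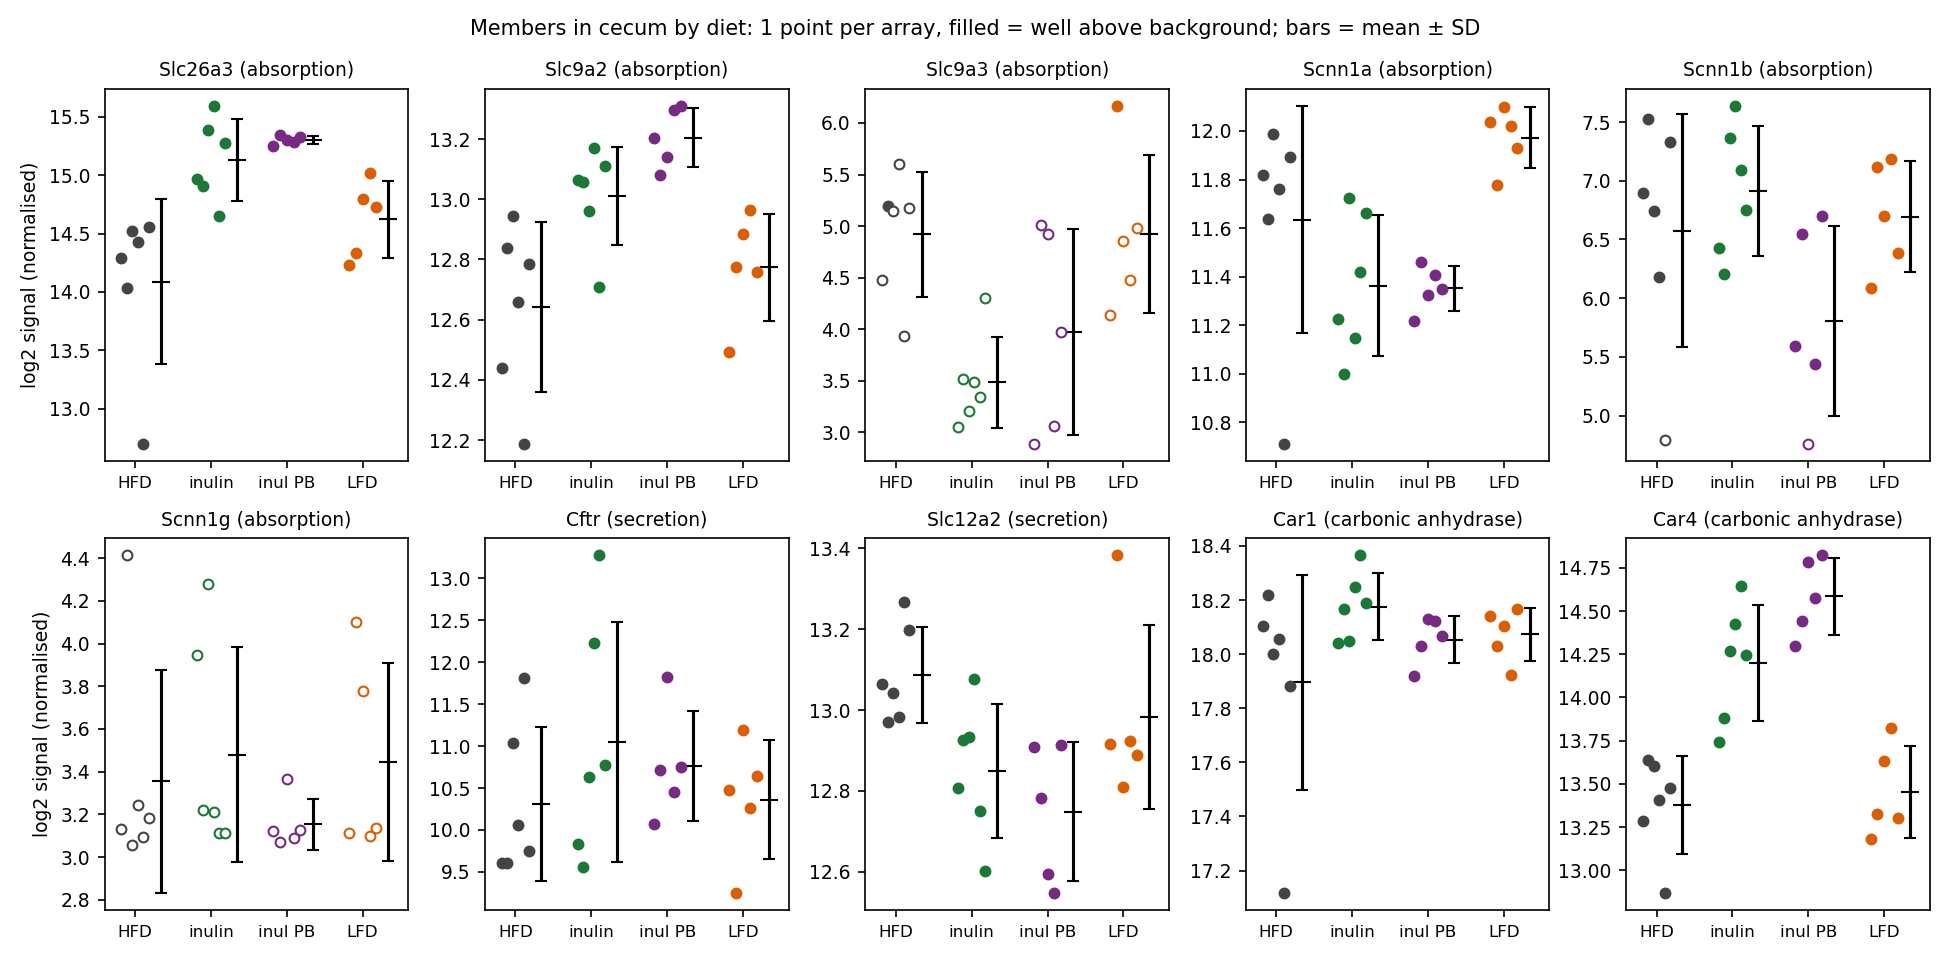
Each panel plots the log2 signal of 1 gene (vertical axis, its own range) in cecum by diet (horizontal axis), with 1 point per array, filled where the probe was well above background, and bars for mean ± SD (n = 6, 6, 5 and 5). For Slc26a3 the HFD arrays lie between 12.70 and 14.55 and the HFD + inul PB arrays between 15.25 and 15.34, and for Slc9a3 and Scnn1g most or all points are open.

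Slc26a3 encodes the apical chloride/bicarbonate exchanger whose loss causes congenital chloride diarrhoea. On HFD its log2 signal was lowest at 12.70, with a median of 14.36 and a highest value of 14.55. On HFD + inulin it ran from 14.65 through a median of 15.12 to 15.60. Every HFD + inulin array therefore lay above every HFD array.

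The 5 HFD + inul PB arrays read 15.25, 15.34, 15.30, 15.28 and 15.33 for Slc26a3, the narrowest spread of any diet (SD 0.04). On LFD they read 14.23, 14.33, 14.80, 15.02 and 14.73. The HFD + inul PB arrays lay above all HFD and all LFD arrays, while the LFD range overlapped that of HFD and that of HFD + inulin.

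The means of Slc26a3 were 14.09 ± 0.71 on HFD (SD, n = 6), 14.62 ± 0.33 on LFD (SD, n = 5), 15.13 ± 0.35 on HFD + inulin (SD, n = 6) and 15.30 ± 0.04 on HFD + inul PB (SD, n = 5). The difference from HFD was 1.04 (SE 0.25, adjusted P = 0.0388) on HFD + inulin and 1.21 (SE 0.26, adjusted P = 0.00782) on HFD + inul PB. Within the 3 slides the difference was 0.77, 1.02 and 1.34 with inulin and 1.13, 0.83 and 1.68 with the esters, and it was positive on every slide. Leaving out HFD replicate 5 gave differences of 0.77 (adjusted P = 0.0208) and 0.94 (adjusted P = 0.003), both still called.

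The HFD + inul PB call for Slc26a3 was kept in all 22 fits that left out 1 array. The HFD + inulin call was lost in 12 of the 22, namely without HFD replicates 1, 2 or 4, HFD + inulin replicates 1, 3, 4 or 6, HFD + inul PB replicates 1, 2, 3 or 4, or LFD replicate 5. Its adjusted P over these fits ran from 0.0208 to 0.107, the highest without HFD + inulin replicate 4. It was also lost with only the 2 diets compared in the fit (adjusted P = 0.221), with scaling to the 75th percentile (adjusted P = 0.076) and with quantile normalisation (adjusted P = 0.0501).

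Slc9a2 encodes NHE2, an apical exchanger of the colonic epithelium. Its log2 signal on HFD ran from 12.19 through a median of 12.72 to 12.94, and on HFD + inulin from 12.71 through 13.06 to 13.17. On HFD + inul PB the arrays read 13.20, 13.08, 13.14, 13.29 and 13.31, and on LFD 12.49, 12.77, 12.88, 12.96 and 12.76. The HFD + inul PB arrays all exceeded the HFD and LFD arrays and overlapped those of HFD + inulin.

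Slc9a2 rose on HFD + inul PB by 0.56 (SE 0.12, 1.48-fold, adjusted P = 0.00789). Its difference within the 3 slides was 0.50, 0.34 and 0.82. On HFD + inulin the difference was 0.37 (SE 0.12) and did not pass (adjusted P = 0.112). The HFD + inul PB difference was 0.47 without HFD replicate 5 (adjusted P = 0.0121). With the 5 arrays of Sis over 9 left out it was 0.45 and no longer called (adjusted P = 0.0661).

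Slc9a3 encodes NHE3, the main apical sodium/proton exchanger of sodium absorption. Its probe was well above background on 1 of 6 HFD arrays, 1 of 5 LFD arrays and on none of the fiber diets. Its log2 signal had a median of 5.16 on HFD, where the lowest array read 3.94, and ran from 3.06 through 3.41 to 4.30 on HFD + inulin. It read 2.89, 5.01, 4.93, 3.06 and 3.97 on HFD + inul PB and 4.14, 6.17, 4.86, 4.48 and 4.98 on LFD, so that the ranges overlapped. The measured means were 4.92 ± 0.60 on HFD and 4.92 ± 0.77 on LFD, against 3.48 ± 0.44 with inulin and 3.97 ± 1.00 with the esters (SD). These readings lie mostly at background on HFD too, so no fold is given. The fit on them gave an adjusted P of 0.0714 with inulin, 0.195 with the esters, 0.0444 with inulin once HFD replicate 5 was left out and 0.038 with inulin under the replicate block, and no fall was read from a probe at this level.

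No ENaC subunit was called higher on any diet. Scnn1a encodes the alpha subunit, which the channel needs to conduct. On HFD its log2 signal ran from 10.71 through a median of 11.79 to 11.99, the lowest being HFD replicate 5, and on HFD + inulin from 11.00 through 11.32 to 11.72. On HFD + inul PB it was 11.21, 11.46, 11.32, 11.41 and 11.35, and on LFD 12.04, 11.78, 12.10, 12.02 and 11.93. All 11 fiber arrays lay below all 5 LFD arrays, and the HFD range overlapped every other diet.

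Against HFD the Scnn1a difference was -0.27 (SE 0.17, adjusted P = 0.501) on HFD + inulin and -0.28 (SE 0.18, adjusted P = 0.418) on HFD + inul PB. These became -0.46 (adjusted P = 0.0504) and -0.47 (adjusted P = 0.0238) without HFD replicate 5. Of the 22 fits with 1 array left out, that one alone called Scnn1a lower on HFD + inul PB. Slide by slide the difference was -0.61, -0.44 and 0.24 with inulin and -0.39, -0.55 and 0.07 with the esters. The slide with a positive sign is the one that holds HFD replicate 5. Against LFD the mean of the fiber diets differed by -0.62 (0.653-fold, SE 0.16) and missed the threshold (adjusted P = 0.0667), with -0.68, -0.72 and -0.52 on the 3 slides.

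Scnn1b encodes the beta subunit. Its log2 signal ran from 4.79 through 6.82 to 7.52 on HFD and from 6.21 through 6.92 to 7.64 on HFD + inulin. It read 5.59, 6.55, 4.76, 5.44 and 6.70 on HFD + inul PB and 6.09, 7.12, 6.70, 7.18 and 6.39 on LFD. The ranges overlapped between all diets. Against HFD the difference was 0.34 (adjusted P = 0.741) on HFD + inulin and -0.77 (adjusted P = 0.354) on HFD + inul PB. The first became -0.02 without HFD replicate 5. The gamma subunit gene Scnn1g has no fold here, since none of the 22 arrays measured it well above background.

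Neither gene of chloride secretion passed the threshold on either fiber diet. Cftr encodes the apical chloride channel. On HFD its log2 signal ran from 9.60 through a median of 9.90 to 11.82. On HFD + inulin it was 9.83, 9.55, 10.64, 12.22, 13.28 and 10.77. It read 10.07, 10.72, 11.82, 10.46 and 10.76 on HFD + inul PB and 10.47, 9.25, 11.19, 10.26 and 10.64 on LFD. The spread between arrays of a diet was wide (SD 0.65 to 1.44) and the ranges overlapped between all diets.

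The Cftr difference from HFD was 0.74 (95% interval -0.42 to 1.90, adjusted P = 0.578) on HFD + inulin and 0.45 (95% interval -0.77 to 1.67, adjusted P = 0.737) on HFD + inul PB. Both intervals hold 0 and reach past 1.5 on the log2 scale. HFD replicate 5 was the highest HFD array for Cftr, and leaving it out gave differences of 1.04 (adjusted P = 0.392) and 0.75 (adjusted P = 0.518).

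Slc12a2 encodes NKCC1, the basolateral sodium-potassium-chloride cotransporter. Its log2 signal ran from 12.97 through 13.05 to 13.27 on HFD and from 12.60 through 12.87 to 13.08 on HFD + inulin. It was 12.91, 12.78, 12.60, 12.55 and 12.91 on HFD + inul PB and 12.91, 13.38, 12.81, 12.92 and 12.89 on LFD. All HFD + inul PB arrays lay below all HFD arrays, and the remaining diets overlapped with HFD.

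The Slc12a2 difference was -0.34 (SE 0.11, 0.792-fold, adjusted P = 0.0646) on HFD + inul PB and -0.24 (SE 0.10, adjusted P = 0.288) on HFD + inulin. On the 3 slides it was -0.17, -0.42 and -0.50 on HFD + inul PB. It was called lower on HFD + inul PB with quantile normalisation (adjusted P = 0.0364), with another background correction (adjusted P = 0.0422), with dim probes filtered out (adjusted P = 0.0318) and without LFD replicate 2 (adjusted P = 0.0312). Its adjusted P was 0.121 without HFD replicate 5.

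**Figure D2:**
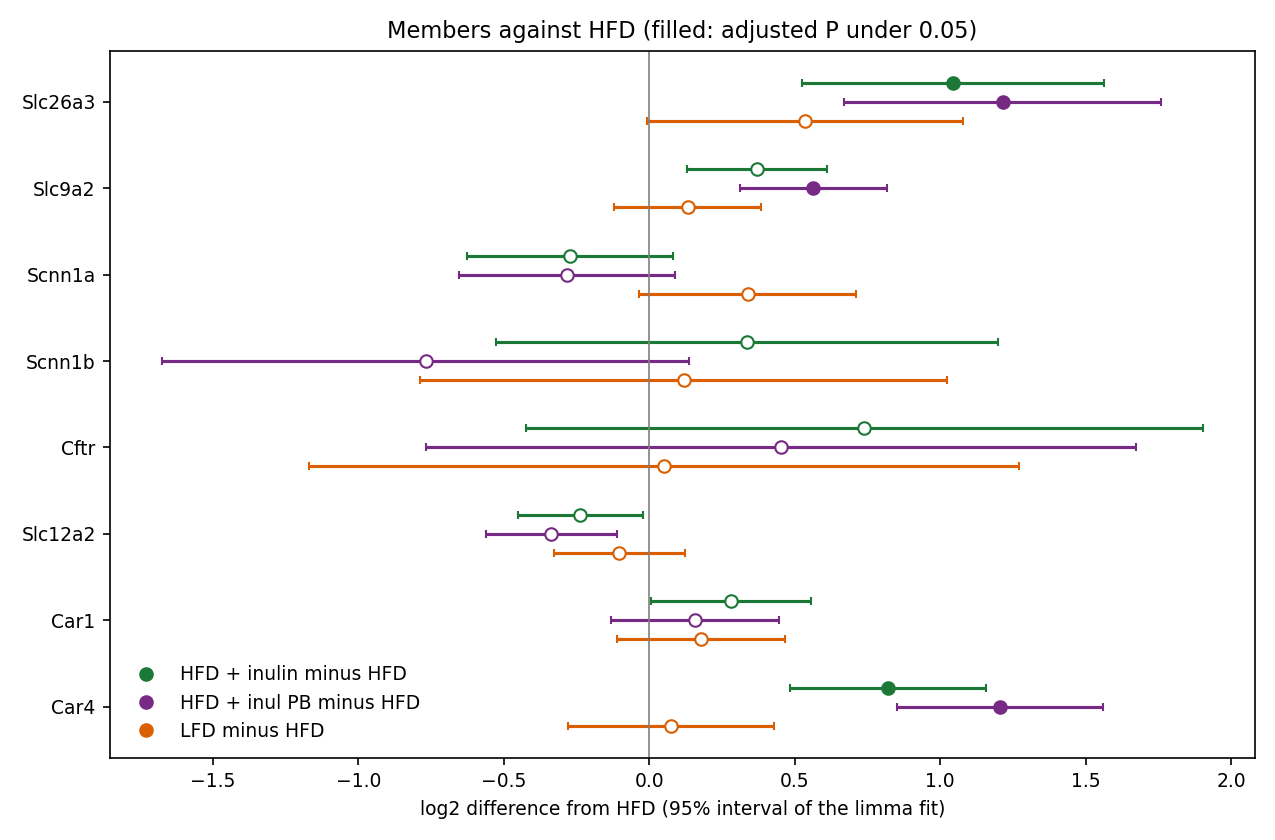
Points are log2 differences from HFD in cecum (horizontal axis) with the 95% interval of the limma fit, for the 8 genes with a level on each diet and for HFD + inulin, HFD + inul PB and LFD. Filled points passed an adjusted P under 0.05, namely Slc26a3 (1.04 and 1.21) and Car4 (0.82 and 1.20) on both fiber diets and Slc9a2 (0.56) on HFD + inul PB; Slc9a3 and Scnn1g are not drawn because they were at or near background.

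Car1 and Car4, the carbonic anhydrases of the set, differed in which calls they received. Car1 encodes a cytosolic isoform of the colonocyte. Its log2 signal ran from 17.12 through 18.03 to 18.22 on HFD and from 18.04 through 18.18 to 18.37 on HFD + inulin. It was 17.92, 18.03, 18.13, 18.12 and 18.07 on HFD + inul PB and 18.14, 18.03, 18.10, 17.92 and 18.17 on LFD. Apart from HFD replicate 5 (17.12) the arrays of all diets shared a range of 17.88 to 18.37. The differences from HFD were 0.28 (adjusted P = 0.342) on HFD + inulin and 0.16 (adjusted P = 0.593) on HFD + inul PB, and 0.12 and 0.00 without HFD replicate 5. A second probe of Car1 gave 0.28 and 0.14.

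Car4 encodes the isoform anchored at the apical membrane, where it works beside the bicarbonate exchangers. On HFD its log2 signal ran from 12.87 through a median of 13.44 to 13.64, and on HFD + inulin from 13.74 through 14.26 to 14.64. On HFD + inul PB the arrays read 14.30, 14.44, 14.79, 14.57 and 14.82, and on LFD 13.18, 13.33, 13.63, 13.82 and 13.30. The arrays of both fiber diets all exceeded the HFD arrays, and those of HFD + inul PB exceeded the LFD arrays too. LFD and HFD overlapped.

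Car4 rose by 0.82 (SE 0.16, 1.77-fold, adjusted P = 0.0144) on HFD + inulin and by 1.20 (SE 0.17, 2.30-fold, adjusted P = 0.000448) on HFD + inul PB. On the 3 slides the difference was 0.35, 0.84 and 1.27 with inulin and 0.91, 1.28 and 1.53 with the esters. Both calls were kept in all 22 fits that left out 1 array, with adjusted P values up to 0.0435 and 0.00238. Leaving out HFD replicate 5 gave 0.72 (adjusted P = 0.0243) and 1.10 (adjusted P = 0.000771). The HFD + inulin call was lost with only the 2 diets compared in the fit (adjusted P = 0.102).

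A second probe of Car4 gave the same calls with larger differences. It rose by 1.18 (2.26-fold, adjusted P = 0.00271) on HFD + inulin and by 1.71 (3.26-fold, adjusted P = 4.84e-05) on HFD + inul PB. Its HFD values ended at 12.25 and its HFD + inulin values started at 12.87, so the groups did not overlap by this probe either.

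The genes called on both fiber diets, Slc26a3 and Car4, are shown here by the 250 bases before their transcription start, since their levels rose together on these diets. Promoters of 6 of the 10 genes were matched by symbol in the RefSeq table (GRCm38.p6). Entries on a single chromosome were left out of this match, though not of the background given below. The Slc26a3 window is chr12:31437969-31438218 on the plus strand, and the Car4 window is chr11:84957504-84957753 on the plus strand. Capitals mark matches, on either strand, to 4 motifs: GTTAAT (part of the HNF1 site), TTTATG (CDX), CAAAGTC (part of the HNF4 site) and GGGCGG (the GC box).
Slc26a3: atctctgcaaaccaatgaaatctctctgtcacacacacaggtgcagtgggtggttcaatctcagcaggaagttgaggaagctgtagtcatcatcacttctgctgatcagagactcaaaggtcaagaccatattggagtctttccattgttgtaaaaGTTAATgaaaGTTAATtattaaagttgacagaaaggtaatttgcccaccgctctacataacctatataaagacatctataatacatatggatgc
Car4: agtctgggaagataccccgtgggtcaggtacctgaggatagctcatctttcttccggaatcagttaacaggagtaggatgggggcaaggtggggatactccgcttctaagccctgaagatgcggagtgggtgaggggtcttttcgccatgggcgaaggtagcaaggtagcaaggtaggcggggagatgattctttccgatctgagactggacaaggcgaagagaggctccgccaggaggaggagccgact

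The Slc26a3 window held 2 matches to GTTAAT, 94 and 84 bases before the start, and no match to the other 3 motifs, with 38.8% G and C. The Car4 window held none of the 4, with 56.4% G and C. Among 32851 RefSeq promoters searched over the same length, GTTAAT was found in 6.43%, TTTATG in 10.8%, CAAAGTC in 3.84% and GGGCGG in 32.7%. The windows thus share none of these letters, and a match or its absence is a description of the sequence and not of a factor's binding.

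Absorption was next set against secretion, array by array, as the deviation of each gene from its own HFD mean. No test was made over these means because the genes were chosen with earlier results known. Over all 6 absorptive genes the mean deviation was 0.20 ± 0.26 on LFD, 0.03 ± 0.21 with inulin and -0.07 ± 0.23 with the esters (SD), beside an SD of 0.50 among the HFD arrays. The exchangers Slc26a3 and Slc9a2 were above their HFD mean on these diets, and Scnn1a was below it on the fiber diets, so that this mean combines opposite signs. It also holds Slc9a3 and Scnn1g, which lay at or near background, so it is given as a description only. About the mean of the other 5 HFD arrays, without HFD replicate 5 (-0.97), the means over all 6 genes became 0.01, -0.17 and -0.26. The sign with inulin thus turned.

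Over the 3 absorptive genes detected on all arrays (Slc26a3, Slc9a2 and Scnn1a) the mean deviation was 0.34 ± 0.18 on LFD, 0.38 ± 0.19 with inulin and 0.50 ± 0.05 with the esters. Over the secretory pair it was -0.03 ± 0.25, 0.25 ± 0.72 and 0.06 ± 0.29 in the same order, and over the carbonic anhydrases 0.13 ± 0.10, 0.55 ± 0.22 and 0.68 ± 0.15. Without HFD replicate 5, whose secretory mean was 0.84, the secretory pair gave 0.14, 0.42 and 0.23, so that the LFD sign turned. The 3 detected absorptive genes then gave 0.15, 0.20 and 0.31, and the carbonic anhydrases 0.00, 0.42 and 0.55. How absorption stood against secretion by these means thus depended in part on that 1 control array.

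By role, 1 of 6 absorptive genes was called higher on HFD + inulin, where 0.842% of all probes were, and 2 of 6 on HFD + inul PB, where 3.51% were. Of the secretory genes 0 of 2 were called on either diet, and of the carbonic anhydrases 1 of 2 on each.

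The apical exchanger Slc26a3 was then set against the basolateral cotransporter Slc12a2. The deviation of Slc26a3 minus that of Slc12a2 ran from -1.57 to 0.48 over the HFD arrays and from -0.05 to 1.10 over the LFD arrays. It ran from 0.90 to 1.68 on HFD + inulin (mean 1.28 ± 0.31) and from 1.34 to 1.74 on HFD + inul PB (mean 1.55 ± 0.18). All fiber arrays lay above all HFD arrays, and the HFD + inulin and LFD ranges overlapped. Slc26a3 alone already set the fiber arrays above the HFD arrays, so this separation is not a further result on secretion. For Slc26a3 minus Cftr the spread within diets was wide, at 0.31 ± 1.49 with inulin and 0.76 ± 0.64 with the esters, with an SD of 1.49 among the HFD arrays. About the other 5 HFD arrays, Slc26a3 minus Slc12a2 had a mean of 0.97 with inulin and 1.24 with the esters, and the fiber arrays (lowest 0.59) still lay above those HFD arrays (highest 0.17). Slc26a3 minus Cftr became -0.27 and 0.18, so that its sign with inulin turned too.

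**Figure D3:**
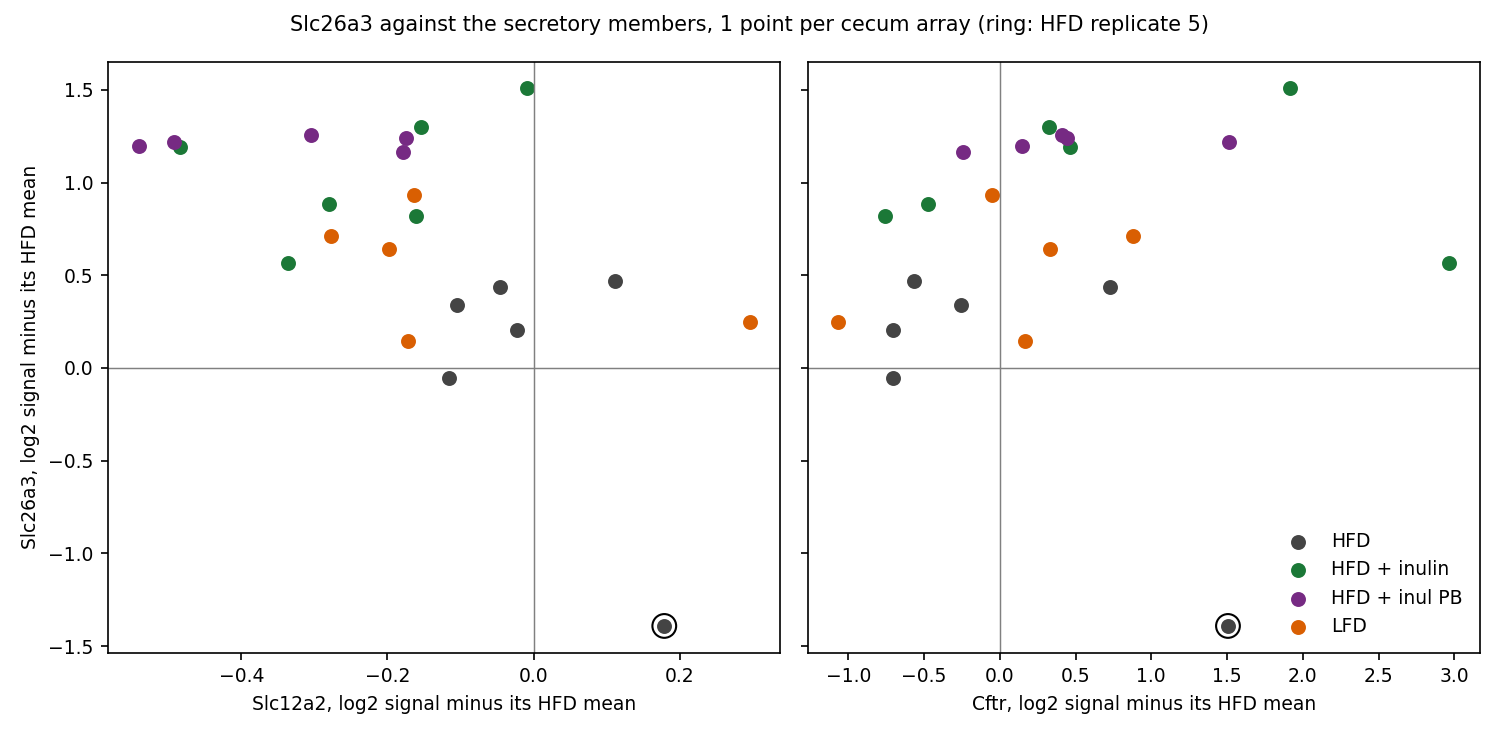
Each point is 1 cecum array; the vertical axis is the log2 signal of Slc26a3 minus its HFD mean, and the horizontal axis is the same for Slc12a2 (left) or Cftr (right), with colours for the 4 diets and a ring around HFD replicate 5. On the left the fiber arrays sit above the HFD arrays and mostly to their left, while on the right the diets overlap along the Cftr axis.

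LFD was compared with HFD to ask how these genes stood on less fat without added fiber. By the study's list of ingredients LFD also held more sucrose and corn starch than HFD and the fiber diets. None of the 10 was called higher or lower, and 0% of all probes were called in each direction, by limma. At an unadjusted P under 0.05 it was 0 of 10 genes and 2919 of 55681 probes. By the criteria of the study's methods 0 of 10 genes passed, against 0.639% of probes. Slc26a3 had the largest difference of the genes well above background, 0.54 (95% interval -0.01 to 1.08, adjusted P = 0.839), which became 0.26 without HFD replicate 5. Car4 differed by 0.07 (95% interval -0.28 to 0.43, adjusted P = 0.959).

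HFD + inul PB was compared with HFD + inulin to ask what the esters added to inulin. Again 0 of 10 genes were called in either direction by limma, where 0.0144% of all probes were higher and 0.00718% lower. At an unadjusted P under 0.05, Car4 was higher and Scnn1b lower. No gene of the set passed the criteria of the study's methods, which 0.803% of probes did. Car4 differed by 0.38 (95% interval 0.03 to 0.74, adjusted P = 0.759), and by its second probe by 0.53 (adjusted P = 0.649) with all HFD + inul PB arrays above all HFD + inulin arrays. Slc26a3 differed by 0.17 (95% interval -0.37 to 0.71), Slc9a2 by 0.19 (-0.06 to 0.45) and Scnn1b by -1.11 (adjusted P = 0.713).

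The fiber diets were averaged and set against LFD, from which they differ in fat, in fiber and in sucrose and starch. That comparison called 1 of 10 genes higher, Car4 by 0.94 (SE 0.15, 1.92-fold, adjusted P = 0.00464), where 0.478% of all probes were higher. It called 0 of 10 lower, where 0.643% were lower, and 2 (Slc9a3 and Scnn1a) were lower at an unadjusted P under 0.05 by limma. By the criteria of the study's methods 3 of 10 passed (Car4 higher, Slc9a3 and Scnn1a lower) against 1.49% of probes. Slc26a3 differed by 0.59 (adjusted P = 0.279) and passed without HFD replicate 5 (adjusted P = 0.0402), which leaves this difference as it was and changes only the estimated spread. Scnn1a was called lower in that fit (adjusted P = 0.00424) and with only the diets compared (adjusted P = 0.0134).

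Ordered by mean level, Slc26a3, Slc9a2 and Car4 were each lowest on HFD, then LFD, then HFD + inulin, and highest on HFD + inul PB. In each of these steps the ranges of the neighbouring diets overlapped by these probes. The Car4 step from HFD to LFD was 0.07, and it became -0.03 without HFD replicate 5. By the second Car4 probe LFD ended at 12.65, below the start of HFD + inulin at 12.87. By that probe HFD + inulin ended at 13.45, below the start of HFD + inul PB at 13.48. Slc12a2 ran the other way, with HFD above LFD, HFD + inulin and HFD + inul PB in turn, again with overlap between neighbours.

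Around these genes stand the pumps, kinases, channels and signals that drive and regulate transport. A list of 72 such genes was read on the same fits. On HFD + inulin 5 of 72 were called higher and 1 lower, where 0.842% of all probes were higher and 0.735% lower. On HFD + inul PB 6 were higher and 4 lower, where 3.51% of all probes were called in each direction, and the median differences over the list were 0.00 and 0.07. On LFD 0 of 72 were called in either direction by limma, with 3 higher and 4 lower at an unadjusted P under 0.05. Between the fiber diets it was 0 of 72, with 6 higher and 4 lower at that unadjusted P. Of the 72, Fxyd4, Car5a, Car6 and Car10 were well above background on no array.

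Regulators of the sodium channel were called in both directions on HFD + inul PB. Of 9 such genes 2 rose and 1 fell there, where 3.51% of all probes were called in each direction, and 1 rose on HFD + inulin, where 0.842% were higher. Nr3c2, the mineralocorticoid receptor through which aldosterone acts, ran from 7.55 to 8.09 on HFD and from 8.41 to 9.08 on HFD + inul PB. It rose by 0.82 (1.76-fold, adjusted P = 0.00253) on HFD + inul PB, and by 0.47 on HFD + inulin, which did not pass (adjusted P = 0.0967). Hsd11b2, the enzyme that shields this receptor from glucocorticoids, fell by 0.83 (adjusted P = 0.0238) on HFD + inul PB. It differed by -0.56 on HFD + inulin (adjusted P = 0.192). Its HFD range (8.81 to 10.57) held the HFD + inul PB range (8.82 to 9.37) only through HFD replicate 5 (8.81), as the next HFD array read 9.69. With that array left out it fell on both diets, by 0.78 (adjusted P = 0.00899) and 1.05 (adjusted P = 0.000535).

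The Hsd11b2 call on HFD + inul PB was lost in 4 of 22 fits, without HFD replicate 6 or HFD + inul PB replicates 1, 2 or 3 (adjusted P up to 0.0621). It was also lost with scaling to the 75th percentile (adjusted P = 0.0506), under the replicate block (0.0644) and with only the diets compared in the fit (0.104). Tmprss4, a membrane serine protease able to activate ENaC, rose by 0.49 (1.40-fold, adjusted P = 0.00565) and 0.58 (adjusted P = 0.000683), with all fiber arrays above all HFD arrays. Its HFD + inulin call was lost with only the diets compared in the fit (adjusted P = 0.0834). Tmprss4 is a gene that the study picked from these samples. Sgk1, the aldosterone-induced kinase, differed by 0.24 (adjusted P = 0.624) and 0.49 (adjusted P = 0.201), the latter called higher without HFD replicate 2 (0.67, adjusted P = 0.0323). The channel subunits measured beside them, Scnn1a and Scnn1b, were not called on either diet.

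Secretagogue signalling, the receptors and kinases that switch secretion on or off, held 10 of the 72 genes. Of these 3 rose and 1 fell on each fiber diet, where 0.842% and 0.735% of all probes were called higher and lower with inulin and 3.51% each way with the esters. Casr, the calcium-sensing receptor, which restrains secretion in the colon, was well above background on 4 of 6 HFD arrays and on all fiber arrays. It read 2.80 to 6.37 on HFD, with replicates 4 (4.59) and 5 (2.80) not well above background, 6.47 to 8.49 on HFD + inulin and 7.61 to 8.06 on HFD + inul PB. The fitted differences, 2.24 (adjusted P = 0.0144) and 2.72 (adjusted P = 0.00177), rest in part on these 2 dim readings, and became 1.78 (adjusted P = 0.00906) and 2.27 (adjusted P = 0.000856) without HFD replicate 5. Adora2b, an adenosine receptor that drives chloride secretion, rose by 1.41 (adjusted P = 0.0378) and 1.74 (adjusted P = 0.0051), which became 1.13 (adjusted P = 0.0527) and 1.46 (adjusted P = 0.0069) without HFD replicate 5. A second Adora2b probe gave 0.59 (adjusted P = 0.318) and 0.95 (adjusted P = 0.0454). The study picked Casr and Adora2b from these samples too.

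Prkg2, the cGMP-dependent kinase below guanylate cyclase C, rose by 1.18 (adjusted P = 0.0323) on HFD + inulin and differed by 0.47 (adjusted P = 0.386) on HFD + inul PB. The difference between the fiber diets was itself not called (-0.71, adjusted P = 0.723). Vipr1, a receptor of vasoactive intestinal peptide, rose by 0.56 (adjusted P = 0.00365) on HFD + inul PB, where a second probe gave 0.20 (adjusted P = 0.566). Ptger4, a prostaglandin E2 receptor, fell by 0.58 (adjusted P = 0.0405) and 0.75 (adjusted P = 0.00413). The HFD + inulin calls were lost in 6 of 22 fits for Prkg2 (without HFD replicates 1, 4 or 6 or HFD + inulin replicates 1, 2 or 4), in 6 for Adora2b (without HFD replicates 2, 4, 5 or 6 or HFD + inulin replicates 3 or 4) and in 9 for Ptger4 (without HFD replicates 2, 4, 5 or 6, HFD + inulin replicates 3 or 4, HFD + inul PB replicate 4 or LFD replicates 3 or 5). Their highest adjusted P in these fits was 0.0887, 0.105 and 0.111, each without HFD + inulin replicate 4. With only the diets compared in the fit the HFD + inulin calls were lost for all 4 of these receptors and kinases, at adjusted P = 0.158 for Casr, 0.172 for Adora2b, 0.197 for Prkg2 and 0.174 for Ptger4. Those of Prkg2, Adora2b and Ptger4 were also lost with scaling to the 75th percentile (adjusted P = 0.0519, 0.0579 and 0.0655) and without the 5 arrays of Sis over 9 (0.099, 0.0728 and 0.0608). The call of Ptger4 was lost as well with normexp background correction (adjusted P = 0.0743) and with the authors' processed values (0.0872).

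**Figure D4:**
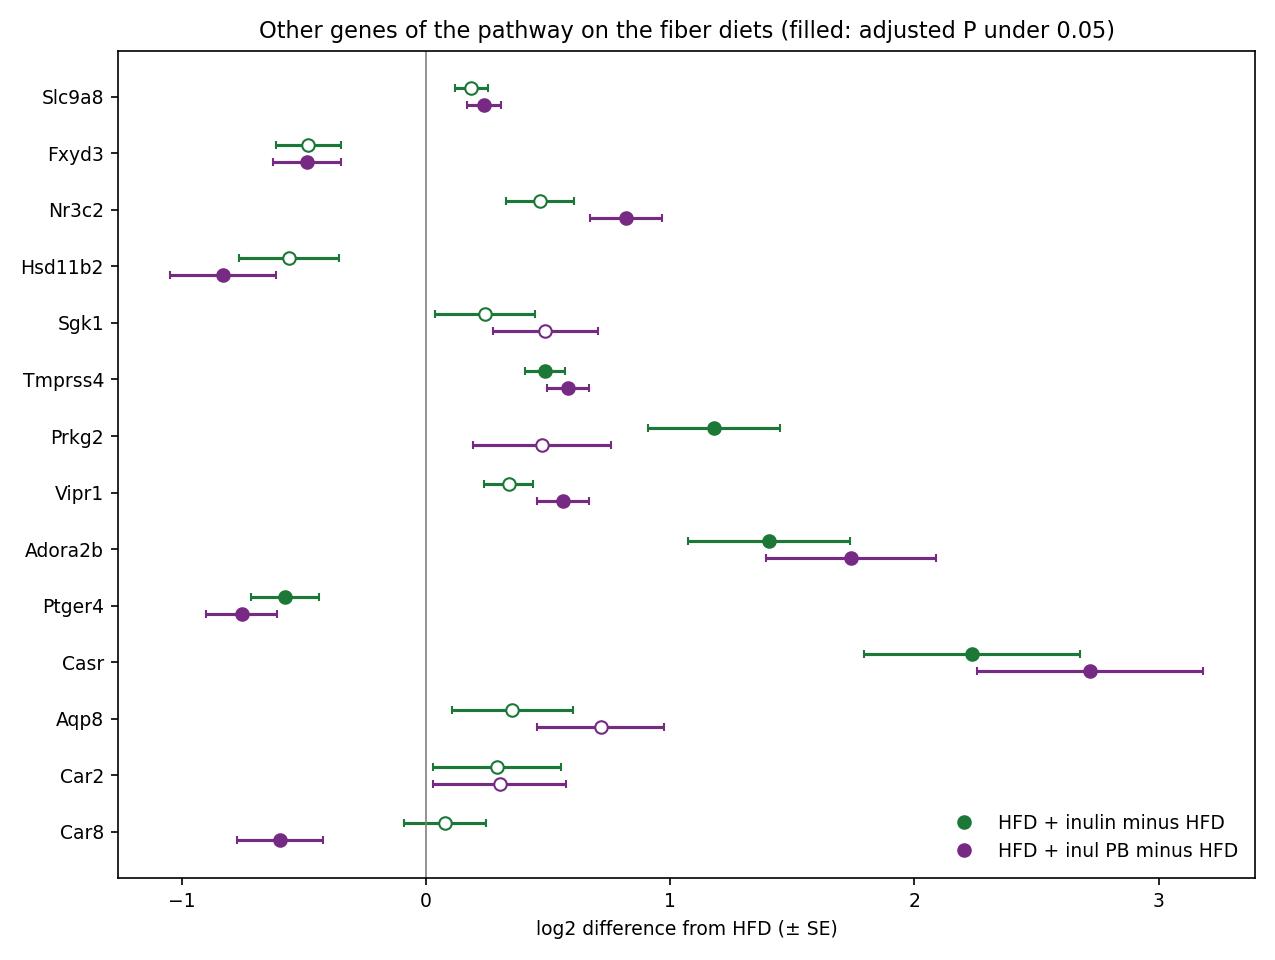
Points are log2 differences from HFD in cecum (horizontal axis) with SE bars, for 14 other genes of the pathway on HFD + inulin and HFD + inul PB, filled where the adjusted P was under 0.05. Casr (2.24 and 2.72) and Adora2b (1.41 and 1.74) lie farthest to the right, with Casr set against an HFD mean that includes 2 arrays not well above background, and Hsd11b2 (-0.83) and Ptger4 (-0.75) farthest to the left on HFD + inul PB.

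The pumps and other exchangers held smaller differences. Of 10 other ion exchangers 1 rose on each fiber diet, beside the shares of all probes given above. Slc9a8, an exchanger of apical and endosomal membranes, rose by 0.24 (adjusted P = 0.047) on HFD + inul PB, a call lost in 15 of 22 (adjusted P up to 0.11) and kept without HFD replicate 3, HFD + inulin replicates 1, 4, 5 or 6, HFD + inul PB replicate 2 or LFD replicate 4. It was also lost in 7 of 11 other settings (adjusted P up to 0.339), and a second probe gave -0.03. Of 7 pumps and pump subunits 0 were called on HFD + inulin by limma, with Fxyd3 lower at an unadjusted P of 0.00168, and 1 fell on HFD + inul PB. That was Fxyd3, a small regulator of the sodium pump, by 0.49 (adjusted P = 0.0377), a call lost in 9 of 22 (without HFD replicates 1, 3, 4 or 6 or any HFD + inul PB array, adjusted P up to 0.0954) and in 4 of 11 other settings (adjusted P up to 0.145). With HFD replicate 5 left out, Fxyd3 fell on both fiber diets, by 0.62 (adjusted P = 0.002) and 0.63 (adjusted P = 0.000893).

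Atp12a, a subunit of the colonic proton-potassium pump, was well above background on 2 of 22 arrays and has no fold here. Aqp8, a water channel of the surface colonocyte, differed by 0.35 (adjusted P = 0.549) on HFD + inulin and by 0.72 (adjusted P = 0.108) on HFD + inul PB, with all HFD + inul PB arrays above all HFD arrays. Without HFD replicate 5 (15.87, next array 16.78) these were 0.15 (adjusted P = 0.773) and 0.51 (adjusted P = 0.21). A second Aqp8 probe gave 0.31 (adjusted P = 0.692) and 1.06 (adjusted P = 0.0715), again with no overlap with the esters.

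Among 14 other carbonic anhydrases 1 was called, Car8, an isoform without catalytic activity. It fell by 0.60 (adjusted P = 0.0458) on HFD + inul PB, where 3.51% of all probes were lower, a call lost in 14 of 22 fits (adjusted P up to 0.118) and kept without HFD replicates 2 or 5, HFD + inulin replicates 2, 3, 4 or 5 or LFD replicates 2 or 4. The call was also lost in 6 of 11 other settings (adjusted P up to 0.287). A second Car8 probe, well above background on 10 of 22 arrays, differed by -1.18 (adjusted P = 0.0207) there. Car2, a cytosolic isoform, differed by 0.29 and 0.30 (adjusted P = 0.64 and 0.605), and by -0.05 and -0.04 without HFD replicate 5. Car3, an isoform abundant in fat and named here after its values were seen, had differences of -2.19 (adjusted P = 0.471) and -4.01 (adjusted P = 0.08), beside the adipocyte markers given further on.

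No gene was called among the scaffolds of the apical exchangers (5 genes), the chloride and potassium channels (8 genes), the cotransporter kinases (4 genes) or the aquaporins (5 genes) on either fiber diet by limma. At an unadjusted P under 0.05 these lists held, on HFD + inulin, Slc9a3r1, Kcnq1 and Aqp11 higher and Slc9a3r2, Ano1, Kcnn4, Kcnma1 and Wnk1 lower. With the esters they held Slc9a3r1, Kcnq1, Kcnk5, Aqp8 and Aqp11 higher and Slc9a3r2, Best2, Kcnn4, Kcnma1, Wnk1 and Aqp1 lower.

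The genes nearest in pattern to the 3 called genes were sought over the 22 cecum arrays among 12337 genes well above background on all of them, by the root mean square (RMS) of the difference of mean-centred log2 signals. For Slc26a3, whose own signals had an RMS of 0.63 about their mean, they were Pitpnm3 (RMS difference 0.19), Gm15401 (0.21) and Stard5 (0.21). For Car4 (own RMS 0.56) they included Selenom (0.23) and Sat2 (0.24). For Slc9a2 (own RMS 0.28) they were Paqr4 (0.13), Ubac2 (0.13) and Dym (0.13). These are likenesses over arrays that share diets and slides, given as a description.

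The cell type markers were read beside these results, since in whole tissue fewer cells of a type and less RNA per cell cannot be told apart. Krt20 had the brightest probe of 5 absorptive colonocyte markers. Of these, 0 were called on HFD + inulin by limma, where 0.842% of all probes were higher and 0.735% lower. There 1, Lypd8, was higher at an unadjusted P under 0.05. On HFD + inul PB 1 of 5, Lypd8, rose, where 3.51% of all probes were higher. The median differences over these markers were 0.27 and 0.32. Their summed log2 level ran from 18.43 to 18.84 on HFD and 18.59 to 18.75 on LFD, against 18.75 to 18.96 with inulin and 18.84 to 19.12 with the esters. The sign was that of Slc26a3, Slc9a2 and Car4, and the highest HFD array was replicate 5. Without it the HFD arrays ended at 18.65, below all 11 fiber arrays, the lowest of which (18.75) also stood level with the highest LFD array. The part of these cells in the results on Slc26a3, Slc9a2 and Car4 was not tested.

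Goblet cell markers, of which Zg16 had the brightest probe, fell in 4 of 7 genes on HFD + inulin (Muc2, Spdef, Fcgbp and Agr2), where 0.735% of all probes were lower. They fell in 6 of 7 on HFD + inul PB (also Tff3 and Zg16), where 3.51% were lower. Of these, Muc2, Tff3 and Agr2 were picked by the study from these samples. Their summed log2 level ran from 19.13 to 20.04 on HFD and 18.98 to 19.36 on LFD, against 18.70 to 19.19 with inulin and 18.54 to 18.82 with the esters. Crypt and proliferation markers (brightest probe Mki67) fell in 1 of 7 on HFD + inulin (Lgr5) and in 4 of 7 on HFD + inul PB (Lgr5, Top2a, Pcna and Mcm5), beside the same shares, with summed levels of 14.52 to 14.83 on HFD and 14.48 to 14.74 on LFD, against 14.11 to 14.81 with inulin and 14.09 to 14.40 with the esters. All of these goblet and crypt markers were well above background on all 22 arrays.

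General epithelial markers (brightest probe Krt19) kept summed levels of 18.57 to 19.05 on HFD and 18.48 to 18.71 on LFD. These stood against 18.03 to 18.83 with inulin and 18.43 to 18.70 with the esters. Of 6 such markers Cdx2 was called higher on HFD + inul PB, where 3.51% of all probes were. There Krt8 (-0.30), Krt19 (-0.25), Vil1 (-0.12) and Epcam (-0.03) had the opposite sign and Cdh1 (0.13) the same sign, none of them called. Adipocyte markers (brightest probe Cidec over all arrays, though Cfd on HFD) had median differences of -2.67 and -4.65 on the fiber diets, where Plin1 of 6 fell on HFD + inul PB, beside 3.51% of all probes. Their summed level ran from 13.14 to 16.64 on HFD and 12.36 to 16.42 on LFD, against 11.40 to 15.96 with inulin and 12.03 to 14.01 with the esters, and 1 of 6 was well above background on all arrays. Leukocyte markers (brightest probe Jchain) were summed at 13.40 to 15.50 on HFD and 13.60 to 14.27 on LFD, against 13.87 to 15.88 with inulin and 13.46 to 14.28 with the esters. The part of any of these cells in the results on the transport genes was not tested.

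Ileal enterocyte markers (brightest probe Slc10a2 over all arrays, though Fabp6 on HFD) were summed at 10.86 to 18.92 on HFD and 10.95 to 16.33 on LFD, against 11.44 to 14.68 with inulin and 11.33 to 15.75 with the esters. No ileal, enteroendocrine, smooth muscle, erythroid or hepatocyte marker was called on either fiber diet by limma, and none was past an unadjusted P of 0.05 on those diets against HFD. The brightest probes of the last 4 lists were those of Chgb, Tagln, Hba-a1 and Ttr, and Alb, a defining hepatocyte gene, was well above background on no array. With the 5 arrays of Sis over 9 left out, 2 of 10 transport genes were called higher on each fiber diet (Slc26a3 and Car4) and 0 lower.

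**Figure D5:**
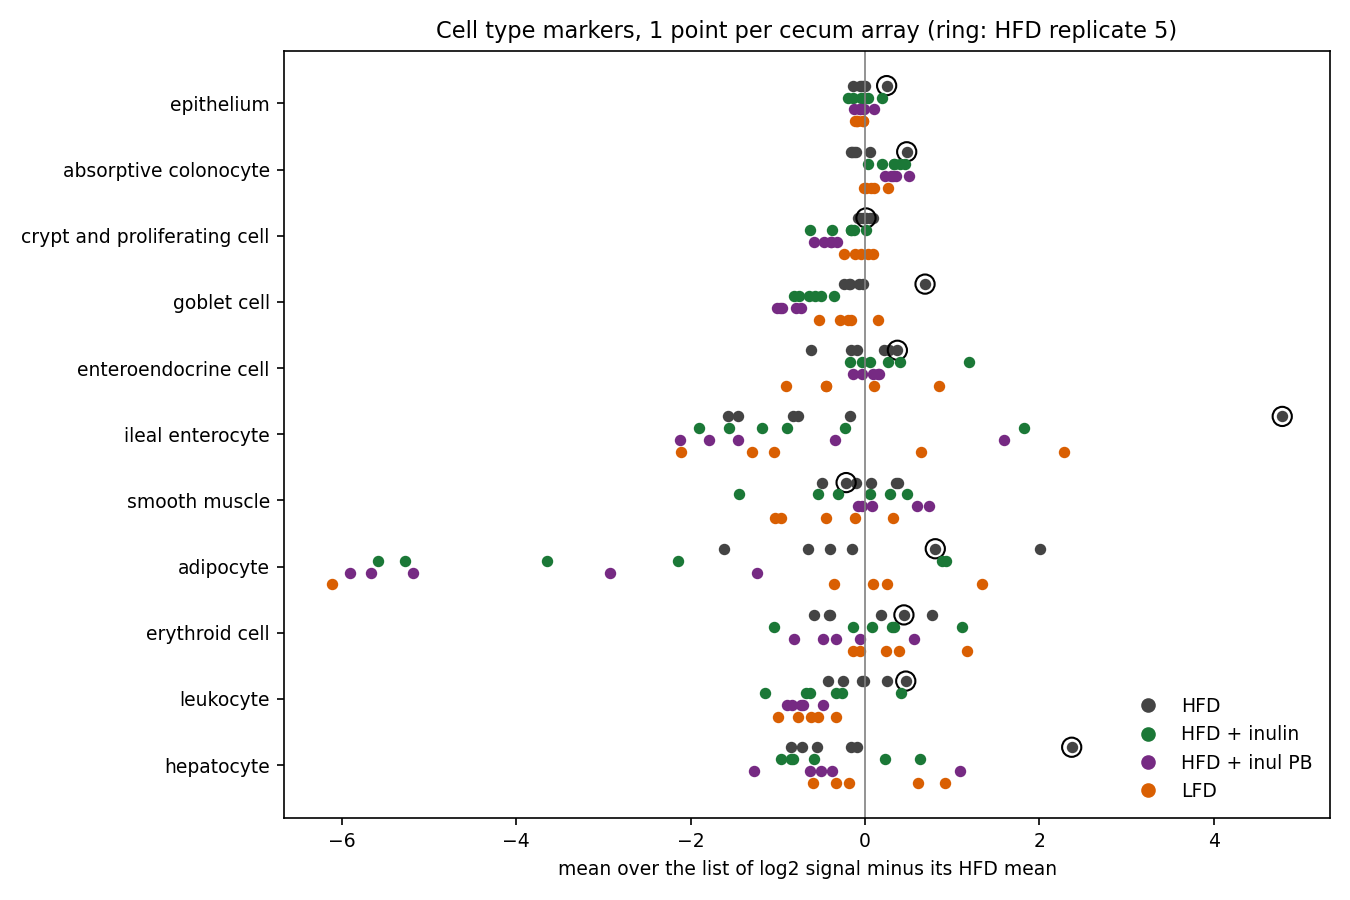
Each point is 1 cecum array; the horizontal axis is the mean over a marker list of the log2 signal minus its HFD mean, with 1 row per cell type, colours for the diets and a ring around HFD replicate 5. HFD replicate 5 lies farthest right for ileal enterocyte markers, and the fiber arrays lie to the left for goblet cell markers.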

How the data were processed

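RNA from 22 cecum arrays (Agilent one-colour, 62976 spots) was analysed. The intensity values deposited by the authors are scanner output, in which the processed signal has background subtracted, spatial trends removed and low values set to a small surrogate. The log2 values that the authors deposited beside them were normalised by cyclic loess and averaged over identical probes in R with limma, and were used as an alternative. Their treatment of background is not given in the sources used here. The study left out 1 cecum array of HFD + inul PB and 1 of LFD.

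Here the log2 processed signal, without control spots and spots marked as outliers (0.288% of spot values), was normalised by fast cyclic loess (span 0.7) over the cecum arrays. Spots of a probe were averaged, leaving 55681 probes, of which 27509 matched a symbol in the RefSeq table by accession. All 4 diets were fitted in limma 3.58.1 (R 4.3.3), with Benjamini-Hochberg adjustment over all probes in each comparison. Arrays were grouped by their labels. No 2 arrays were identical. The fit was tested on simulated data.

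The genes, the pathway and marker lists and the tests were chosen with earlier results of these data known. The genes named were the 10 of the set, the pathway genes called in a comparison with those fixed beside them, the 3 genes nearest in pattern and the markers. Alternatives changed the normalisation, background correction, outlier spots, dim-probe filter, slide, replicate number, fit, probe and call rule, and left out each array in turn. Normexp (offset 50) was run on the median spot signal. A few genes within the counts are not reported here by name.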

Additional observations from a re-analysis of the deposited data

Results flagged for a closer look

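In 11 of 100 groups of a gene and a diet 1 array stood apart from the others by Dixon's test, where chance marks about 1 in 20. Of the 11, 6 were HFD replicate 5, the array with the highest ileal enterocyte signal. On it Slc26a3 read 12.7 (next array 14.03), Scnn1a 10.71 (11.64), Car1 17.12 (17.88), Fxyd3 10.74 (11.37), Aqp8 15.87 (16.78) and Car2 13.67 (15.57), each the lowest HFD value.

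The other 5 lay on different arrays. Slc9a3 read 4.30 on HFD + inulin replicate 6 (next array 3.52) and Scnn1g read 4.41 on HFD replicate 2 (3.24) and 3.36 on HFD + inul PB replicate 3 (3.13), all not well above background. Slc12a2 read 13.38 on LFD replicate 2 (12.92) and Slc9a8 read 13.08 on HFD + inul PB replicate 2 (13.2).

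In liver, which the comparisons did not use, the probes of Scnn1a, Cftr, Slc12a2, Car1 and Car4 were each well above background on 24 of 24 arrays. Scnn1b was so on 1 of 24, and Slc26a3, Slc9a2, Slc9a3 and Scnn1g on 0 of 24.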

How the results depend on the processing

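Over 72 results and 34 settings, 2200 of 2380 alternative values kept the direction and the side of the threshold, 137 lost a call, 26 gained one and 17 changed sign, none of these a called value. The number of genes of the set called higher on HFD + inul PB was 3 with 1 array left out, whichever it was, and 2 without the Sis arrays. Only the diets compared in the fit gave 0 of 10 higher on HFD + inulin (46 probes called), and 75th percentile scaling (368 probes) and quantile normalisation gave 1, Car4. On HFD + inul PB 1 of 10, Slc12a2, was called lower with quantile normalisation, normexp or the dim-probe filter. In the fiber diets against LFD 1 of 10, Scnn1a, was called lower with normexp, the authors' values, the dim-probe filter or only the diets compared. The criteria of the study's methods called 1 lower on HFD + inulin (Slc9a3) and 2 lower against LFD, with 1375 probes on HFD + inulin, 356 on LFD and 447 between the fiber diets. The dim-probe filter gave 1803 probes on HFD + inulin, 20 between the fiber diets and 1227 against LFD. The slide as a block gave 1331 on HFD + inulin, and 75th percentile scaling gave 299 against LFD. The arrays with Sis over 9, left out as a choice made after seeing the data, gave 1685 probes on HFD + inul PB and 167 against LFD. The cause of these shifts was not tested.

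Leaving out 1 array at a time gave 1 to 2 genes higher and 0 to 1 lower on HFD + inulin (331 to 1369 probes), 3 higher and 0 to 1 lower on HFD + inul PB (2248 to 4609 probes), 0 to 2 probes on LFD, 11 to 35 between the fiber diets, and 1 to 2 genes higher and 0 to 1 lower against LFD (165 to 927 probes). Replicate numbers were not taken as pairs in the main fit. Of 31 same-numbered pairs 15 had a correlation over 0.1, and 5 of 22 arrays correlated best with their own number. The median correlation was 0.10 for same-numbered pairs and -0.04 for pairs of different number. These values do not settle whether the numbers mark a pairing. With the replicate block 1 of 10 genes, Slc9a3, was called lower on HFD + inulin (adjusted P = 0.038). Its readings lay mostly at background, so no fall was read from it. Cftr on LFD changed sign to -0.0335 under that block. The HFD + inul PB calls of Hsd11b2 (0.0644), Fxyd3 (0.071), Car8 (0.0578) and Slc9a8 (0.0641) were lost under it, the values being adjusted P.

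The values that changed sign were small. With quantile normalisation Car1 against LFD was -0.153. Without the Sis arrays Car2 was -0.0726 on HFD + inulin, Car2 -0.00898 and Car1 -0.00227 on HFD + inul PB, and Car4 -0.0459 on LFD. With 1 array left out Cftr on LFD ran from -0.155 to 0.352, Scnn1b on HFD + inulin from -0.021 to 0.526, Car4 on LFD from -0.0283 to 0.142, and Car2 from -0.0533 to 0.392 with inulin and -0.0426 to 0.403 with the esters. Slc9a3 and Scnn1g lay at or near background, which limits any statement on them.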
